A study of Mus musculus with 6 samples.

Results

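Immunoglobulin V segments are the short gene segments from which a B cell builds the antigen-binding part of its antibody. The array rows whose single gene symbol begins with Ighv, Igkv or Iglv gave 199 V segment genes of 30063 genes measured, 113 of the heavy chain locus (Ighv, chromosome 12) and 86 of the kappa light chain locus (Igkv, chromosome 6). The lambda light chain locus (Iglv) gave 0, because its V segments share 1 array row with lambda J and constant segments. Each member had 1 row. In RefSeq's annotation of mouse GRCm38.p6 there are 183 Ighv, 162 Igkv and 3 Iglv segments. It calls 63 of its Ighv and 60 of its Igkv segments pseudogenes, among them 3 Ighv and 7 Igkv members. The remaining listed segments were not analysed here.

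A developing B cell joins a V segment to D and J segments on the heavy chain and to a J segment on the light chain, and the joined exon is spliced to a constant region such as mu (Ighm). Each mature B cell thus carries mainly 1 heavy and 1 light V segment, and plasma cells, the antibody-secreting end stage, transcribe theirs at very high level. A V segment that has not been joined can also give a germline transcript, and a row of this array cannot tell the forms apart.

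The samples were megakaryocytes, the polyploid marrow cells that shed platelets, sorted by side scatter, CD41 and a DNA content of at least 8N from female C57 mice. The 3 AML arrays came from mice with acute myeloid leukaemia induced by the fusion oncogene MLL-AF9, and the 3 control arrays from healthy mice. The labels do not say how MLL-AF9 was introduced, and give no ages. They name the arrays biological replicates but number no animals, and p-values here reflect the spread between these samples alone. Values are the authors' log2 RMA expression values, differences are AML minus control on that scale, and ± is the SD over n = 3 arrays. In such bulk samples, fewer cells of a type and less RNA per cell cannot be told apart. The megakaryocyte genes Itga2b, which encodes CD41, and Pf4 stood at 9.22 ± 0.46 and 11.98 ± 0.22 in AML and at 9.04 ± 0.11 and 12.09 ± 0.12 in control. Across all genes the AML minus control difference had a median of +0.11 (-0.01 with arrays centred on their medians), and medians of groups are also given relative to it. V segments are close paralogs whose probes can share signal, which leaves single values uncertain.

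The median V segment stood lower in the AML sorts at both loci, while the share of Igkv members called lower was near that of all genes. With limma and Benjamini-Hochberg adjustment over all genes, 20 of the 199 members, or 10.1%, passed an adjusted p of 0.05 as lower. These were 13 of 113 Ighv, or 11.5%, and 7 of 86 Igkv, or 8.14%, beside 6.25% of all genes. None of the 199 passed as higher (8 did at an unadjusted p of 0.05), beside 4.49% of all genes. The AML mean was below the control mean in 150 of the 199. All 3 AML values lay below all 3 control values in 58 members, or 29.1%, beside 13.1% of all genes, and above them in 7 members, or 3.52%, beside 28.2% of all genes. With AML array 1, 2 or 3 left out, the lower members numbered 26, 7 and 17, beside 1291, 1071 and 1967 of all 30063 genes. With control array 1, 2 or 3 left out, they numbered 36, 9 and 11, beside 1693, 782 and 822. Without AML array 2 the share of members called lower was no higher than that of all genes. Under each other omission it was higher.

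The loci were not tested against each other, since members of a locus are not replicates. The median difference was -0.40 over Ighv and -0.34 over Igkv, or -0.51 and -0.45 relative to all genes. The median level of the 113 Ighv members was 4.78, 4.52 and 4.68 on AML arrays 1 to 3, against 4.95, 5.05 and 5.25 on control arrays 1 to 3. That of the 86 Igkv members was 4.84, 4.97 and 5.05 on the AML arrays, against 5.18, 5.42 and 5.72 on the control arrays. At both loci the 3 AML medians lay below the 3 control medians. Leaving out AML array 1, 2 or 3 gave 23, 4 and 12 lower Ighv members, and leaving out control array 1, 2 or 3 gave 13, 5 and 4. For Igkv the same omissions gave 3, 3 and 5 for the AML arrays, and 23, 4 and 7 for the control arrays. The Igkv share was below that of all genes under each AML omission and above it under each control omission.

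Most V segments were dim. The files give no detection call, so the 95th percentile of the mean levels of 1718 olfactory and vomeronasal receptor genes, 5.51, served as a yardstick, here called the olfactory receptor level. Of the 199 members, 74 had a mean above it. On the AML arrays 70, 57 and 64 members lay above it, against 75, 85 and 98 on the control arrays. Among the 74 brighter members 7 were lower, or 9.46%, beside 12.1% of all genes above the level. These were 5 of 39 Ighv, or 12.8%, and 2 of 35 Igkv, or 5.71%. Among the 125 dimmer members 13 were lower, or 10.4%, beside 1.69% of all genes at or below it. Of the 20 lower members, 5 had both group means above the level, 9 only the control mean, and 6 neither. For the 9, the fall is given as at least a fold, with AML values set no lower than the level. For the 6 no fold is given.

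**Figure D1:**
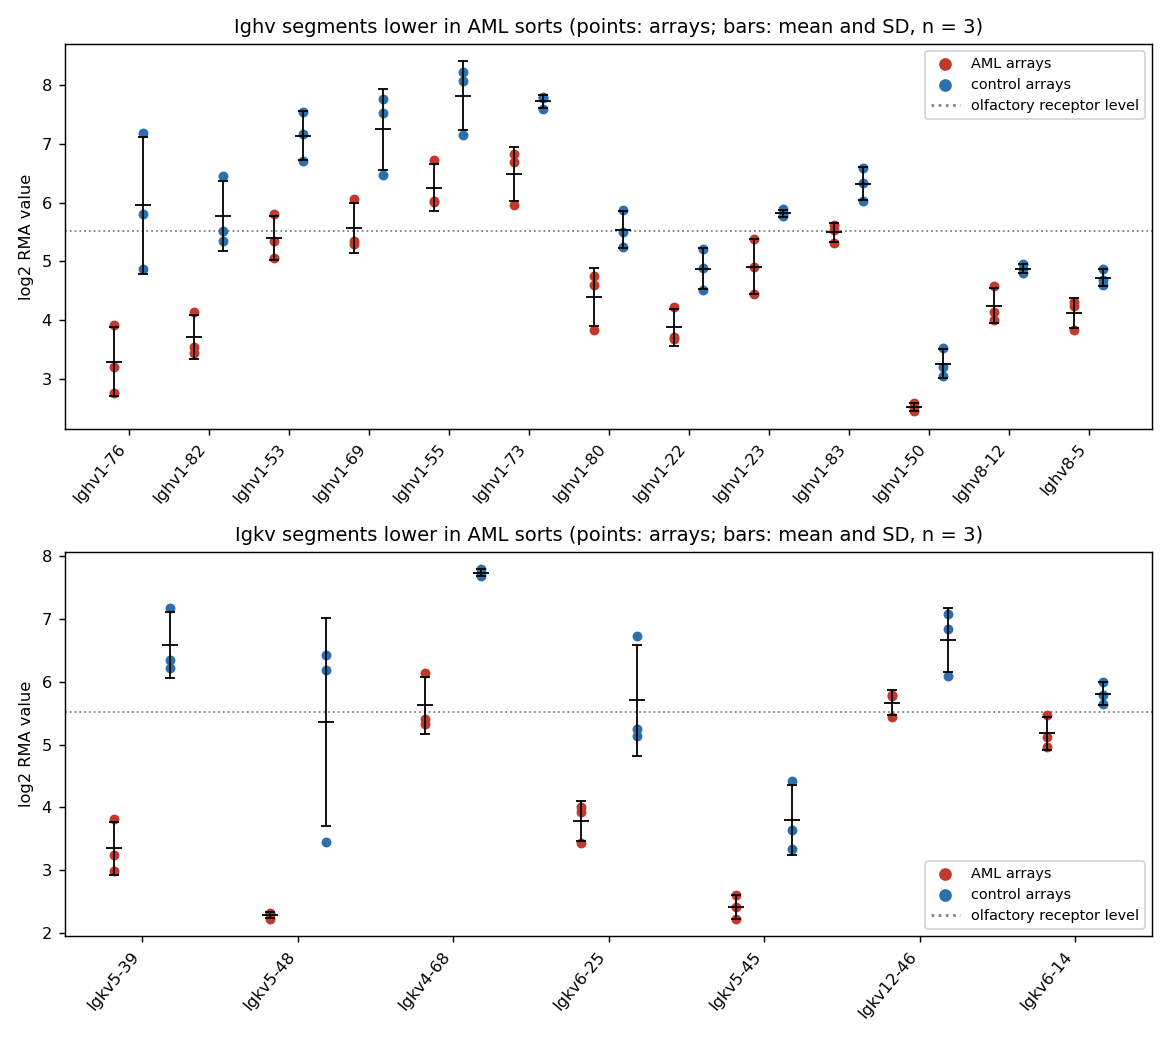
Each V segment that passed as lower in AML, ordered by size of difference, with its log2 RMA value on each array (points, AML left of control), the mean and SD of each group (bars) and the olfactory receptor level (dotted). The AML and control points of each gene do not overlap, and the AML points of 15 of the 20 genes average below the dotted line.

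On the heavy chain locus the lower members came from 2 families, Ighv1 and Ighv8. Members of a V family, named by the first number of the symbol, are alike in sequence. Ighv1, the largest mouse heavy chain family, held 11 of the 13 lower members among its 61. The other 52 Ighv members held 2, both among the 8 of Ighv8. The share was thus 18.03% in Ighv1 and 25% in Ighv8, beside 6.25% of all genes. Of the 8 Ighv8 members 0 had a mean above the olfactory receptor level. All AML values lay below all control values in 50.8% of Ighv1 and 62.5% of Ighv8 members, beside 13.1% of all genes. The Ighv1 median was 4.73, 4.44 and 4.61 on the AML arrays, against 5.40, 5.42 and 5.73 on the control arrays. The median difference was -0.60 over Ighv1 and 0.00 over the other Ighv members, and relative to all genes -0.71 and -0.11. The other families did not stand at a common value, with median differences of -0.39 over the 8 Ighv8, -0.45 over the 4 Ighv14, -0.44 over the 2 Ighv11 and -1.08 over the 2 Ighv9 members, of which only Ighv8 held calls. Of the 61, 58 had a lower AML mean. Omitting AML array 1, 2 or 3 gave 23, 4 and 10 lower Ighv1 members, and omitting control array 1, 2 or 3 gave 11, 5 and 4. The other Ighv members held 0, 0 and 2 lower calls under the AML omissions and 2, 0 and 0 under the control omissions. Ighv8 held 2 without AML array 3 and 0 under each other omission and with a replicate block.

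The 6 Ighv members with the largest falls among those that passed were all of Ighv1, and 3 of them had both means above the olfactory receptor level. Ighv1-69 stood at 6.06, 5.29 and 5.35 on the AML arrays, against 6.47, 7.52 and 7.76 on the control arrays. Ighv1-69 fell 3.21-fold, with a difference of -1.68 (SE 0.36, adjusted p = 0.0308 with limma). Its AML arrays 2 and 3 lay under the level, so this fold rests partly on dim values. Ighv1-55 stood at 6.72, 6.03 and 6.02 in AML and at 7.15, 8.23 and 8.08 in control, a 2.96-fold fall (adjusted p = 0.0264 with limma). In both genes control array 1 was the lowest control and AML array 1 the highest AML array. Ighv1-73 stood at 6.69, 5.97 and 6.82 in AML and at 7.60, 7.78 and 7.80 in control, a 2.35-fold fall (adjusted p = 0.0168 with limma). Ighv1-53 stood at 5.80, 5.05 and 5.34 in AML and at 6.71, 7.17 and 7.54 in control, at least 2.89-fold lower (adjusted p = 0.00851 with limma). Its call held in all 14 refits, as did that of Ighv1-82 in its 13.

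Ighv1-76 and Ighv1-82 had AML values that were all far under the olfactory receptor level. Ighv1-76 was at 3.92, 2.75 and 3.20 in AML and at 7.18, 4.86 and 5.81 in control, at least 1.36-fold lower (adjusted p = 0.032 with limma). Ighv1-82 was at 4.14, 3.54 and 3.45 in AML and at 5.51, 6.45 and 5.34 in control, at least 1.19-fold lower (adjusted p = 0.0104 with limma). Some of these calls rest on single arrays. Ighv1-69 lost its call when AML array 2 or 3 or either of control arrays 2 and 3 was omitted (limma adjusted p of 0.0566 to 0.118). Ighv1-55 lost it without AML array 2 or either of control arrays 2 and 3 (0.0802 to 0.104), and Ighv1-73 without either of control arrays 2 and 3 (both 0.0749). Ighv1-76 lost it without AML array 2, AML array 3 or the last control array (0.0552 to 0.103). The other lower Ighv1 members were Ighv1-80, Ighv1-22, Ighv1-23, Ighv1-83 and Ighv1-50, and the 2 of Ighv8 were Ighv8-12 and Ighv8-5. All 7 were chosen after their values were seen, and their differences ran from -1.15 to -0.60.

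Ighv2 and Ighv5, the families next to the D segments and the constant genes, did not share this pattern. All 8 Ighv2 members were above the olfactory receptor level, with family medians of 7.09, 6.88 and 6.66 in AML and 6.67, 6.84 and 6.74 in control. Ighv2-5, the second brightest Ighv member, stood at 8.66, 8.77 and 8.48 in AML and at 8.38, 8.62 and 8.26 in control (difference +0.21, adjusted p = 0.24 with limma). Ighv2-3 was the nearest of the named genes to a rise, at 7.62, 7.52 and 7.46 in AML and at 7.23, 7.29 and 7.27 in control. Its groups did not overlap, its difference was +0.27 and its adjusted p with limma was 0.0573. It passed as higher under array weights (adjusted p = 0.0152), quantile normalization (0.024), cyclic loess (0.0199), the test of genes at or above the median level (0.0401) and without AML array 3 (0.0437). Ighv2-2 stood at 7.79, 7.36 and 6.85 in AML and at 6.92, 7.78 and 7.07 in control, so its groups overlapped (adjusted p = 0.856 with limma). The 8 Ighv2 differences were all above 0, but 2 of the 8, Ighv2-2 among them at -0.04, lay below 0 under median centring, and 2 did without AML array 1. Their median was +0.18, or +0.07 relative to all genes. The median over the 9 Ighv5 members was +0.03 and turned to -0.09 under median centring, -0.08 under quantile normalization and -0.11 under cyclic loess.

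**Figure D2:**
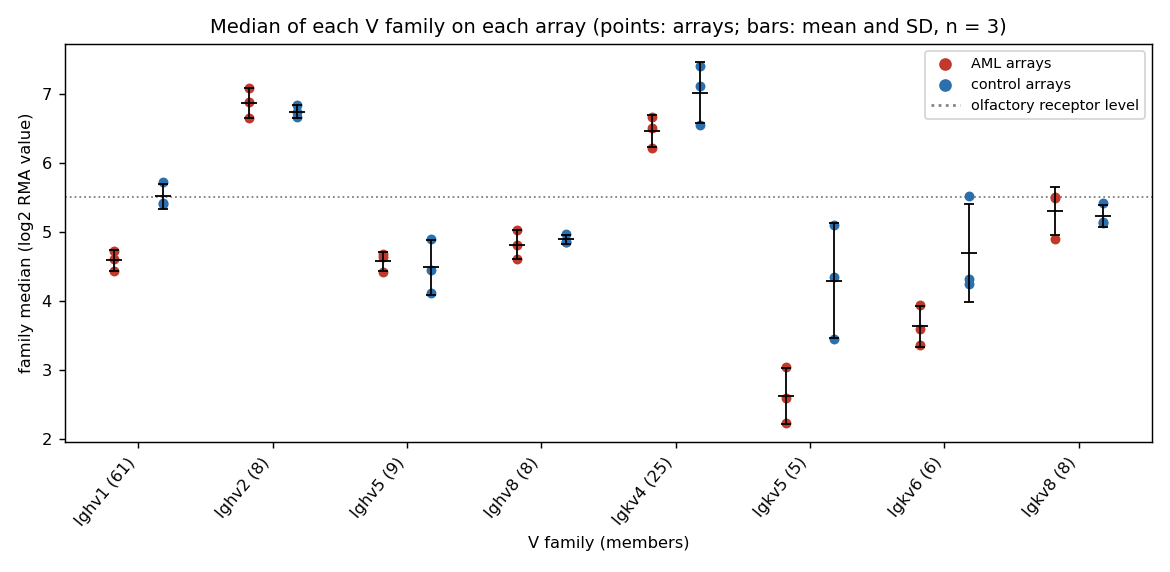
Median log2 RMA value of 8 V families (number of members in parentheses) on each array, AML points left of control points, with the mean and SD over the 3 arrays of a group. Ighv1 lies lower on all 3 AML arrays, at 4.44 to 4.73 against 5.40 to 5.73, while the Ighv2 groups overlap.

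Family and place along the locus go together, so their parts cannot be told apart. Counted from the constant genes outward, the 113 Ighv members fall into a near stretch of 37, a middle stretch of 38 and a far stretch of 38. The near stretch held 0 lower members, the middle stretch 3, or 7.89%, and the far stretch 10, or 26.3%, beside 6.25% of all genes. The median differences were +0.03, -0.40 and -0.65, and that of the near stretch was -0.09 under median centring, -0.08 under quantile normalization and -0.11 under cyclic loess. With AML array 1, 2 or 3 omitted, the far stretch held 12, 4 and 9 lower members and the middle stretch 11, 0 and 3. With control array 1, 2 or 3 omitted, the far stretch held 10, 4 and 4 and the middle stretch 1, 1 and 0. The near stretch held 2 with control array 1 omitted and 0 in each other case. Over all 30063 genes the lower calls numbered 1291, 1071 and 1967 under the AML omissions, and 1693, 782 and 822 under the control omissions. Ighv1 supplied 28 members of the middle and 33 of the far stretch, while Ighv2 and Ighv5 together span places 1 to 17. Across the 113 members Spearman's rho between place and difference was -0.48, a description only, since neighbours share family, probes and arrays.

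On the kappa locus no such order was seen. The same coefficient was -0.03 over the 86 Igkv members, and the stretches nearest to farthest from the constant gene held 5, 2 and 0 lower members of 28, 29 and 29, with median differences of -0.24, -0.54 and -0.18. Without control array 1 the counts were 5, 14 and 4. Omitting AML array 1 or AML array 2 gave 2, 1 and 0, and omitting AML array 3 gave 3, 1 and 1. Omitting control array 2 gave 2, 1 and 1, and omitting control array 3 gave 3, 1 and 3. With all arrays the shares were 17.9%, 6.90% and 0%, beside 6.25% of all genes. Lower calls over all genes ranged from 782 to 1967 under these omissions.

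**Figure D3:**
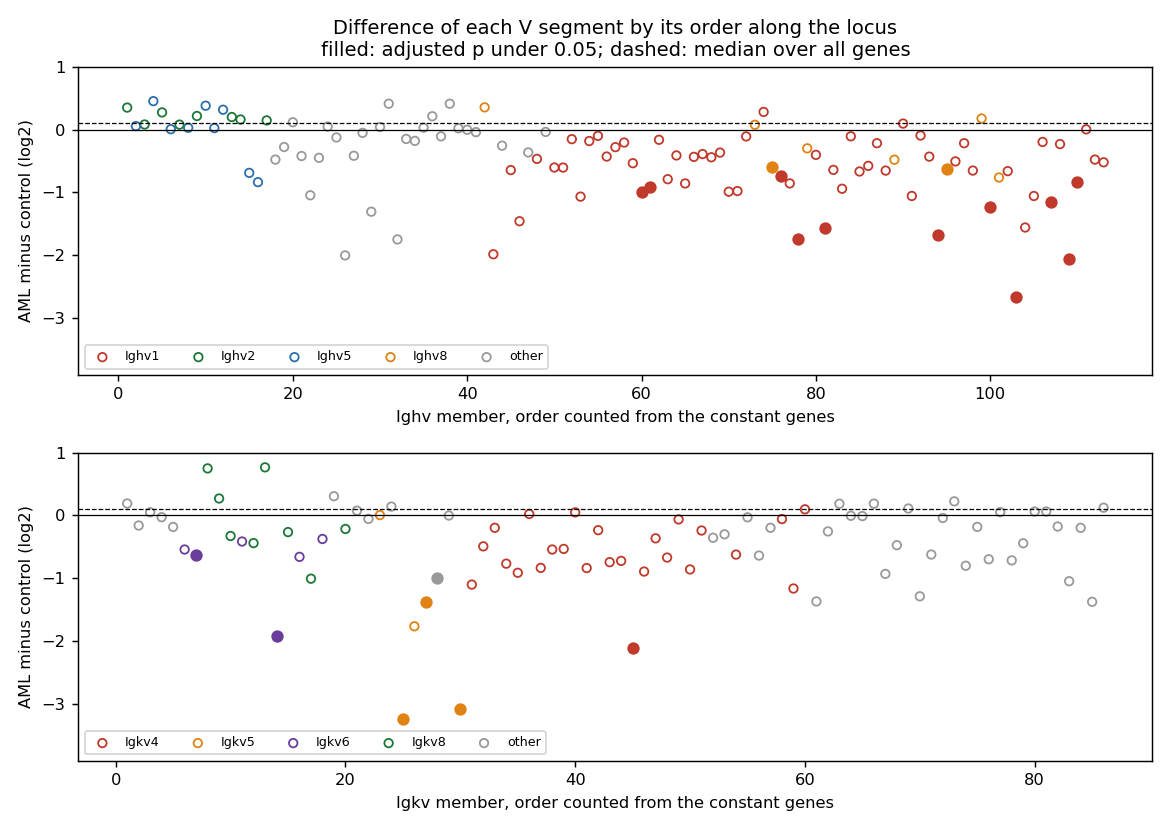
Difference (AML minus control, log2) of each of the 113 Ighv (top) and 86 Igkv members (bottom) against its place along the locus, counted from the constant genes, coloured by family, filled where the adjusted p was under 0.05. The dashed line is the median over all genes, +0.11, and the filled heavy chain points all lie beyond place 59.

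The 7 lower kappa members came from 4 families. Igkv5 held 3 of them among 5 members, Igkv6 held 2 of 6, and Igkv4 and Igkv12 held 1 each of 25 and 5. In that order the shares were 60%, 33.3%, 4% and 20%, beside 6.25% of all genes. Of the Igkv5 and Igkv6 members 0 had a mean above the olfactory receptor level. Igkv5-39 showed the largest fall of any V segment, at 3.82, 2.99 and 3.24 in AML and at 6.22, 6.34 and 7.18 in control. The difference was -3.23 (SE 0.30, adjusted p = 0.00167 with limma), at least a 2.10-fold fall, since its AML values lie under the olfactory receptor level. Igkv4-68 had both group means above that level. It stood at 5.33, 5.40 and 6.15 in AML and at 7.79, 7.74 and 7.68 in control, a 4.32-fold fall (adjusted p = 0.00199 with limma). Its AML arrays 1 and 2 lay under the level, so this fold rests partly on dim values. The calls of both held in every refit, 13 for Igkv5-39 and 14 for Igkv4-68.

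The other named kappa calls were less steady. Igkv12-46 stood at 5.78, 5.78 and 5.45 in AML, the last just under the olfactory receptor level, and at 7.08, 6.83 and 6.09 in control. That was a 1.99-fold fall (adjusted p = 0.0483 with limma). The Igkv12-46 call was lost without any single array but control array 3 (adjusted p 0.0845 to 0.161). Igkv6-25 stood at 4.01, 3.43 and 3.93 in AML and at 5.14, 5.24 and 6.73 in control, at least 1.14-fold lower (adjusted p = 0.0326 with limma). Its call was lost when AML array 1, AML array 2 or the second control array was omitted (0.0652 to 0.0927). Igkv5-48 was at 2.31, 2.23 and 2.31 in AML and at 3.45, 6.19 and 6.43 in control (adjusted p = 0.0412 with limma), with control array 1 far below the other 2 controls. Igkv5-45 was at 2.42, 2.23 and 2.60 in AML and at 3.34, 4.42 and 3.63 in control (adjusted p = 0.0223 with limma). Igkv5-48 lost its call without any single array but control array 1 (0.0658 to 0.143), and Igkv5-45 without AML array 1 or 2 or control array 3 (0.0587 to 0.0714). The last lower member, Igkv6-14, was chosen after its values were seen, with a difference of -0.63. Without single arrays, Igkv5 held between 1 and 4 lower members and Igkv6 between 0 and 1.

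The brightest kappa members split the control arrays. Of the 6 with the highest mean, 5 belong to Igkv4, the largest kappa family measured. Igkv4-54 stood at 7.64, 7.47 and 7.73 in AML and at 7.67, 8.65 and 8.81 in control, so that control array 1 fell among the AML values (adjusted p = 0.117 with limma). Igkv15-103 showed the same split, at 7.15, 7.09 and 6.99 in AML and at 7.10, 8.39 and 8.52 in control (adjusted p = 0.122 with limma). Igkv4-71, Igkv4-63 and Igkv4-59 followed it, with differences of -0.67, -0.72 and -0.84 and adjusted p of 0.119, 0.097 and 0.108 with limma. Igkv4-61, the brightest kappa member, stood at 8.02, 7.78 and 7.99 in AML and at 7.89, 8.37 and 8.23 in control (adjusted p = 0.257 with limma).

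The family as a whole did likewise. The Igkv4 median was 6.67, 6.22 and 6.50 in AML and 6.55, 7.41 and 7.11 in control. In 14 of the 25 Igkv4 members control arrays 2 and 3 lay above every AML array while control array 1 did not. Without control array 1, 13 of the 25 passed as lower, against 1 with it. Over all V segments the same split was seen in 40 of 199 members. It was not counted over all genes, so these counts do not show it to be particular to V segments or to Igkv4.

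AML array 1 stood apart from the other AML arrays in a set of members, again chosen after their values were seen. In 30 of the 199 members AML arrays 2 and 3 lay below every control while AML array 1 did not. In 7 members AML array 1 exceeded both other AML arrays by at least 1 on the log2 scale. Neither count was made over all genes, so they do not show a trait particular to V segments. Ighv1-2, the brightest member and a pseudogene in the gene table, stood at 10.56, 8.03 and 8.22 in AML and at 10.76, 11.23 and 10.77 in control. Its groups did not overlap, yet its adjusted p with limma was 0.0859, and 0.002 without AML array 1. Ighv1-18 stood at 6.35, 3.45 and 3.44 in AML and at 4.28, 5.11 and 5.14 in control, so that AML array 1 was the highest of all 6. Igkv4-57-1 stood at 7.41, 5.19 and 5.24 in AML and at 5.42, 7.58 and 6.47 in control. Igkv10-95 stood at 7.14, 5.47 and 4.97 in AML and at 5.39, 6.42 and 6.53 in control. The bright members Ighv1-5 and Ighv1-56 met neither rule, since their AML array 1 lay below every control and did not exceed both other AML arrays by 1. Ighv1-5 was at 7.28, 6.60 and 6.19 in AML and at 7.58, 7.66 and 9.21 in control (adjusted p = 0.0898 with limma, and 0.0902 without AML array 1). Ighv1-56 was at 7.84, 7.38 and 7.10 in AML and at 7.91, 7.94 and 8.39 in control (adjusted p = 0.092 with limma, and 0.0484 without AML array 1).

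The brighter V segments varied more between arrays of a group than all genes above the olfactory receptor level, a set that includes them and was not matched for brightness. Over the 74 members above the olfactory receptor level the median SD was 0.26 in AML and 0.32 in control. Over all 13242 genes above it the median SD was 0.12 in AML and 0.11 in control. Ighv1-62-2 and Ighv1-71 had identical values on all arrays. The 10 pseudogene members held 0 lower calls, against 20 of 189, or 10.6%, in the other members, too few to compare the shares. The median difference was -0.41 over the 3 Ighv pseudogenes, against -0.40 over the other Ighv members. Over the 7 Igkv pseudogenes it was -0.001, against -0.41 over the other Igkv members.

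The constant regions that a V segment is spliced to were measured in 4 single-symbol genes. Ighm, the mu heavy chain of naive B cells, stood at 8.01, 7.20 and 6.96 in AML and at 10.09, 10.71 and 10.42 in control, an 8.10-fold fall (adjusted p = 0.0017 with limma). Ighg2b, of a switched isotype, stood at 7.28, 5.42 and 5.05 in AML and at 5.47, 7.22 and 7.34 in control (adjusted p = 0.449 with limma). Its AML array 1 and control array 1 thus departed from their groups in the same way as in Igkv10-95. Ighg1 stood at 4.95 ± 0.18 in AML and 4.76 ± 0.06 in control, and Ighe at 4.63 ± 0.07 and 4.42 ± 0.20, with adjusted p of 0.235 and 0.225 with limma.

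The row shared by the lambda V, J and constant segments stood at 6.11, 6.21 and 5.12 in AML and at 6.44, 7.05 and 7.29 in control. Its difference was -1.11 (adjusted p = 0.0733 with limma, fitted with the shared rows added). Another 8 rows name an Ighv and 15 an Igkv segment beside other symbols, and 1 and 2 of these passed as lower and 0 as higher. The 5 D and J segments measured, Ighd5-7, Ighd5-8, Ighd6-1, Ighd6-2 and Igkj3, are 4 distinct measurements, since Ighd5-7 and Ighd6-1 had identical values on all arrays. Their AML means lay above their control means, with differences of +0.29 to +0.80 and adjusted p of 0.0773 to 0.279 with limma.

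**Figure D4:**
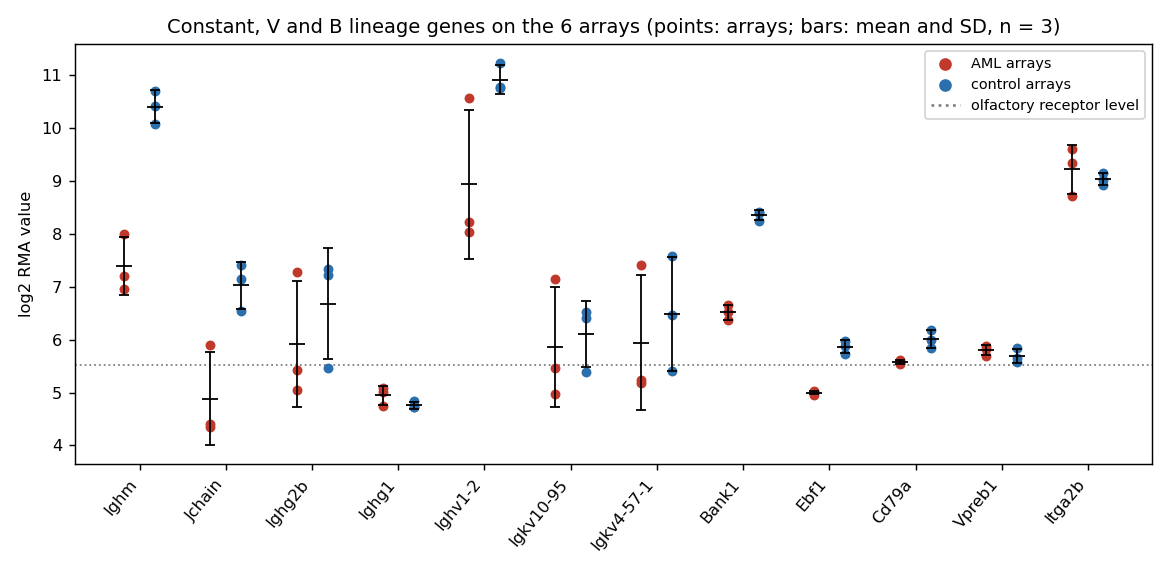
Log2 RMA value of constant region, V segment and B lineage genes and of Itga2b on each array (points, AML left of control), with the mean and SD of each group (n = 3). Ighm, Jchain and Bank1 lie lower on all AML arrays, whereas in Ighg2b, Igkv10-95 and Igkv4-57-1 AML array 1 lies with the higher controls and control array 1 with the lower AML arrays.

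Some genes of B cells and a few of plasma cells were lower beside the V segments, and their part in the V segment values was not tested. Of 16 B cell genes 7 were lower, or 43.75%, and 0 higher, beside 6.25% and 4.49% of all genes. The mean level over the list was 5.42 to 5.54 in AML and 5.95 to 6.08 in control. Pax5, Cd22, Blnk, Blk, Cr2, Cd72, Spib, Pou2af1 and Cd37 did not pass, and Cd37 alone had a higher AML mean. Bank1, a B cell scaffold protein, stood at 6.52 ± 0.14 in AML and 8.36 ± 0.09 in control (adjusted p = 3.5e-04 with limma). Ebf1, a factor that commits cells to the B lineage, had a difference of -0.87 and was at least 1.28-fold lower (adjusted p = 0.0018 with limma). Cd79a and Cd79b, the signalling chains of the B cell receptor, had both means above the olfactory receptor level. Cd79a stood at 5.58 ± 0.04 in AML and 6.01 ± 0.17 in control (adjusted p = 0.0378 with limma). Cd79b stood at 6.27 ± 0.16 in AML and 6.67 ± 0.07 in control (adjusted p = 0.0483 with limma). Ms4a1, which encodes CD20, was under that level in both groups, at 3.97 ± 0.17 in AML and 5.16 ± 0.10 in control. The lower B cell genes numbered 4 when AML array 2, control array 1 or control array 2 was omitted.

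Of 13 plasma cell genes 4 were lower (2 without control array 2), or 30.8% beside 6.25% of all genes, and 1 higher. The list had a median difference of -0.05 and mean levels of 5.95 to 6.14 in AML and 6.30 to 6.47 in control. Jchain, which links secreted antibodies, stood at 5.90, 4.41 and 4.35 in AML and at 6.54, 7.15 and 7.40 in control, at least 2.62-fold lower (adjusted p = 0.0264 with limma), with AML array 1 the highest AML array and control array 1 the lowest control. The higher one was Fkbp11, a folding factor of the endoplasmic reticulum, at 7.27 ± 0.13 in AML and 6.42 ± 0.17 in control (adjusted p = 0.00589 with limma). Besides Jchain, the regulators Prdm1 and Irf4 and the elongation factor Ell2 were lower, while Xbp1, Derl3, Creld2 and Txndc5 did not pass. The defining genes Sdc1 and Tnfrsf17 stood at 5.54 ± 0.09 and 5.04 ± 0.15 in AML and at 5.50 ± 0.08 and 4.99 ± 0.09 in control, close to or under the olfactory receptor level. Of 6 genes of the surrogate light chain and V(D)J recombination, which mark precursor B cells, 0 were lower and 0 higher. Igll1, Rag2 and Dntt were under the olfactory receptor level in both groups, and Rag1 was not analysed. Vpreb3 lay lower in AML without overlap (difference -0.38, adjusted p = 0.0768 with limma), as did 13.1% of all genes. Igll1 and Rag2 lay higher without overlap, as did 28.2% of all genes and 33.6% of those at or below that level. Vpreb1 and Vpreb2 had both means above the level, and their groups overlapped. Of 6 genes of plasmacytoid dendritic cells 2 were lower, Siglech and Ly6d, or 1 without control array 2. That was 33.3%, beside 6.25% of all genes. All 6 had a lower AML mean, with mean levels of 5.74 to 5.80 in AML and 6.09 to 6.26 in control. Of 7 monocyte and macrophage genes 7 were lower, or 100% beside the same 6.25%. Their mean levels were 7.29 to 7.62 in AML and 8.62 to 8.82 in control. Of 10 megakaryocyte genes 0 were lower and 0 higher.

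T cell receptor V segments, a family of the same build used by T cells, held calls in the other direction. Of 117 measured, 0 were lower and 17 higher, beside 4.49% of all genes. All 17 were among the 86 Trav segments, and the 21 Trbv, 5 Trgv and 5 Trdv segments held 0. The family had a median difference of +0.22, or +0.11 relative to all genes. Their median was 4.64, 4.64 and 4.77 on the AML arrays, against 4.46, 4.44 and 4.43 on the control arrays. With AML array 1, 2 or 3 omitted the higher ones numbered 7, 3 and 14, with control array 1, 2 or 3 omitted 16, 1 and 1, and with median centring 10. The olfactory and vomeronasal receptors, the family behind the yardstick level, had a median difference of +0.24, no lower than that of the T cell receptor segments, with 0 of 1718 lower and 117 higher. The difference between the V segments of the 2 receptor types was not tested, and both run over the same arrays. Of 7 T cell genes 0 were lower and 1 higher, Bcl11b, which was under the olfactory receptor level in both groups. The list held 0 higher genes under every single-array omission but that of AML array 3. Its median difference was +0.09, beside +0.11 over all genes.

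Outside the members, the 5 genes whose values most resembled the mean of the 74 brighter V segments over the 6 arrays were Pcif1, Tbl1xr1, Hgsnat, Trpc4ap and Maea. They were chosen for that likeness, and their differences were small, from -0.41 to -0.23, with adjusted p of 0.0978 to 0.14 with limma. In all 5, AML array 1 was the highest AML array and control array 1 the lowest control. Pcif1 stood at 6.73, 6.55 and 6.59 in AML and at 6.73, 6.91 and 6.98 in control. This order of the arrays was thus not confined to V segments.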

How the data were processed

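The authors deposited log2 values of 6 Affymetrix whole-transcript arrays made with RMA, per the submitters' processing notes, a method that also quantile-normalizes. Each array took 250 ng of RNA, per the labels' protocols. No source used here gives the array's genome build. Of 72688 rows, 30604 carry 1 symbol and 2146 several in the platform annotation (a repeated symbol was counted once). Symbols were updated through RefSeq GRCm38.p6, used for names, gene type and order only. Each gene kept its row with the highest mean, which left 30063 genes.

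All genes were tested with limma (lmFit and eBayes, two-sided, AML minus control, Benjamini-Hochberg adjustment, threshold 0.05), checked on simulated data. Members and lists were chosen with earlier results of these data known. Named were, per locus, the 6 brightest members, up to 6 with the largest falls and up to 6 with the largest rises past the threshold without overlap, measured constant genes, and called genes of the surrogate light chain list; the other list genes named were chosen after their values were seen. Alternatives were a replicate block, trend, array weights, quantile, centring and loess normalization, a level filter, row means, a 2-fold minimum and leaving out each array; 2 more were added after seeing the data. Same-numbered arrays did not deviate together (correlations of -0.36, 0.14 and -0.29). Tests ran in R 4.3.3 (limma 3.58.1 and version 1.17.8 of data.table). Tables and figures were made in Python 3.11.15 with matplotlib 3.10.9, numpy 2.4.6 and pandas 2.3.3.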

Additional observations from a re-analysis of the deposited data

How the results depend on the processing

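The lower V segments numbered 12 with the replicate block (8 Ighv, 4 Igkv, beside 861 lower and 206 higher genes in all), numbers that the arrays share by name only, and 13 with a 2-fold minimum (8 Ighv, beside 447 and 115). They numbered 51 with array weights (27 Ighv, 24 Igkv), where 5 members were higher (2 Ighv, 3 Igkv), beside 3014 lower and 4839 higher genes. Higher members numbered 1, of Ighv, under quantile normalization and under cyclic loess, and 2, both Ighv, among genes at or above the median level, where 4 Igkv were lower. Under median centring 505 genes in all were higher. Leaving out single arrays gave 7 to 36 lower and 0 to 2 higher V segments, 4 to 23 lower and 0 to 1 higher Ighv, 3 to 23 lower and 0 to 2 higher Igkv, and 782 to 1967 lower and 185 to 1639 higher genes, with medians of -0.49 to -0.24 over Ighv and -0.53 to -0.17 over Igkv. Of the 20 lower members, 10 were also lower with the block, 19 with array weights and all 20 under each normalization. The Ighv2-2 difference changed sign under median centring (-0.041) and ran between -0.15 and 0.34 without single arrays, never past the threshold. The causes were not tested. The number of arrays limits the precision of all counts.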
